A study of Mus musculus with 8 samples.

Results

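Integrins, laminins and nidogens are the proteins through which a muscle stem cell holds on to the basement membrane of its muscle fibre. The 32 genes described here are 12 integrin alpha, 8 integrin beta, 5 laminin alpha, 3 laminin beta, 2 laminin gamma and 2 nidogen genes. They were chosen by name, and all 32 were found by gene identifier among the 57180 genes of the deposited count and TPM tables. RNA was sequenced from freshly isolated muscle stem cells of mice, purified by flow cytometry, in 4 control libraries (replicates 2, 5, 7 and 8, genotype WT in the labels) and 4 libraries of SC-RhoAfl/+ mice (replicates 5, 6, 7 and 8), which the titles call RhoA het and the genotype field RhoA knockdown. The second group carries 1 floxed allele of RhoA, the small GTPase that passes tension from adhesions to the actin cytoskeleton, beside an intact one, and the design text gives expression changes after reduced RhoA activity as the aim. The labels name neither the Cre driver, nor the age of the animals, nor the surface markers of the sort, nor how many animals went into a library, so p-values measure the spread between these libraries, which may be technical.

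An integrin is a pair of 1 alpha and 1 beta chain that spans the cell membrane, and the pair decides the ligand. A laminin is a trimer of 1 alpha, 1 beta and 1 gamma chain, secreted and assembled into the basement membrane, where nidogens tie the laminin network to collagen IV. In skeletal muscle the main laminin holds the alpha chain encoded by Lama2, and the main laminin-binding integrin of fibres and satellite cells is the pair encoded by Itga7 and Itgb1. Integrin engagement is also one of the inputs that activate RhoA, which in turn drives contractile actin and the SRF and YAP/TEAD transcription programs.

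Libraries held 19138763 to 25606342 assigned fragments. All 10 listed stem cell markers were detected in every library, among them Pax7 at 46.6 to 100.1 TPM. Rhoa itself averaged 134.2 ± 10.9 TPM in control and 116.5 ± 6.23 TPM in RhoA het (SD, n = 4 each), with the highest RhoA het library, at 125 TPM, inside the control range of 121 to 148 TPM. In the edgeR fit described below, its log2 fold change was -0.29 (SE 0.13, unadjusted p 0.0495 in edgeR). It did not pass an adjusted p of 0.05. Some libraries stood apart. RhoA het replicate 6 held the most RNA of endothelial cells: the summed TPM of 11 endothelial markers was 467 there, against 84.4 to 110.2 in the other RhoA het libraries and 42.4 to 123 in control. That library and control replicate 2 carried Y-linked transcripts (402 and 370 summed TPM over 4 genes, at most 0.0639 elsewhere). Xist was at 0.0570 and 0.0380 TPM in these 2 libraries and at 33.7 to 45.0 TPM in the others. The replicate numbers 5, 7 and 8 occur in both groups, and the 2 libraries of each of these numbers deviated from their group means in the same direction (correlation over all genes tested 0.544 for number 5, 0.231 for number 7 and 0.488 for number 8). Fits with the number as a block used these 6 libraries, and so left out the 2 with Y-linked transcripts.

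Lamb1 had the largest fitted log2 fold change between the groups among the 29 genes tested, so the sequence before its start is shown, beside that of Lamb2, the more abundant gene for the same place in the trimer. Both windows are the 250 bases before the RefSeq gene start (GRCm38.p6, plus strand, 5′ to 3′), at chr12:31265043-31265292 for Lamb1 and chr9:108479612-108479861 for Lamb2. Capitals mark GC boxes (GGGCGG on either strand).
Lamb1: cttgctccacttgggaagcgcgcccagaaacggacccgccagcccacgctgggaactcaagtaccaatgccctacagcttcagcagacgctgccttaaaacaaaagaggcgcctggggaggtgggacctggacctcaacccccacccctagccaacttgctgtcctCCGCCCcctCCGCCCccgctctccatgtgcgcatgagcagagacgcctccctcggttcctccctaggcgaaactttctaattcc
Lamb2: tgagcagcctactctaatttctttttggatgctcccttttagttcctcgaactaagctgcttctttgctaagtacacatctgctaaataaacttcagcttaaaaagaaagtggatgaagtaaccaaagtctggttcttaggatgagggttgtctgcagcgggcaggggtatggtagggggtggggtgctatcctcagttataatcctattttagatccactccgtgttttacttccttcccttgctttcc
The Lamb1 window is 62% G and C and holds 2 GC boxes, which do not overlap. The Lamb2 window is 43.6% G and C and holds none, against a median of 52.4% over all 32851 windows of the table. A GC box was found in 32.7% of all windows and in 9 of the 24 windows of listed genes. These 9 belong to 8 of the 21 listed genes with a window. The other motifs searched on both strands were the TATA box TATAAA (12.4% of all windows), the TEAD motif GGAATG (12.6%), the AP-1 motif TGANTCA (6.75%) and the SRF CArG box (1.47%). None of these 4 was in either printed window. The TEAD motif was in windows of Itga10, Itgb1, Lamb3 and Nid1 and the SRF CArG box in windows of Itgb6 and Lama2. A match describes letters only, and absence from these windows says nothing about binding elsewhere.

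Levels were read as TPM, which are scaled by gene length and so can be compared between genes. The order was headed by Itgb1, then Itga7, Lamb2 and Itga5. Of the 32 genes, 15 averaged at least 10 TPM over all libraries, 10 averaged 1 to 10 TPM and 7 averaged under 1 TPM. Itgb1 lay above Itga7 in 8 of 8 libraries with no overlap of their ranges, and Itga5 likewise lay above Itgav, the next gene in the order. Between these steps Itga7, Lamb2 and Itga5 were not separated, since their ranges overlapped, and from Itgav downward the ranges of all neighbours overlapped. Within libraries, Lama5 lay above Itga3, Lamb3 above Itga4 and Itgb6 above Lama1 in 8 of 8. The order of all 32 genes was the same with TMM-scaled counts per kilobase.

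**Figure D1:**
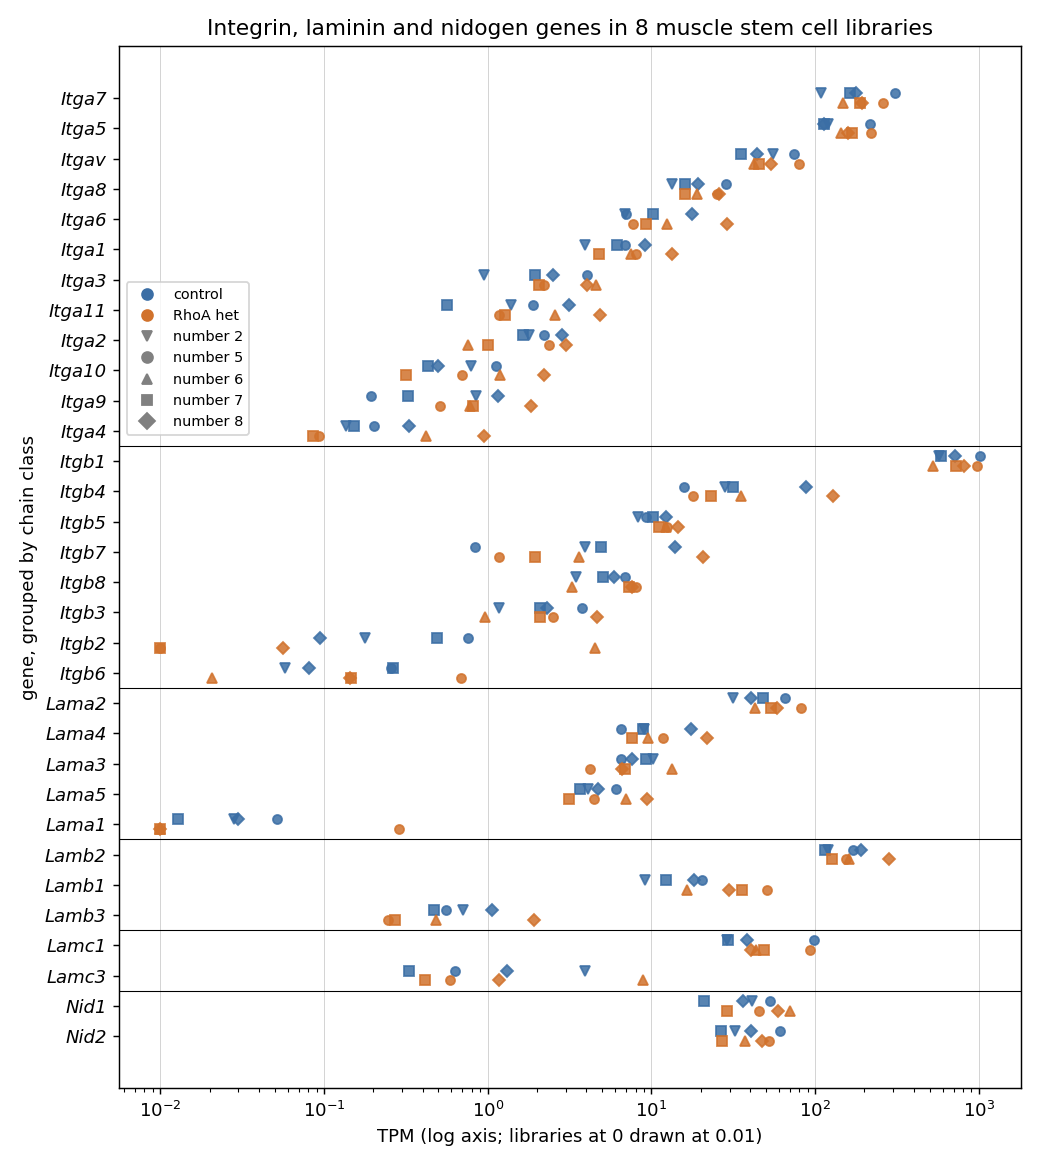
Level of each gene in TPM on a log axis, grouped by chain class and ordered by mean level, with 1 point per library (blue, 4 control; orange, 4 RhoA het; shape, replicate number; libraries at 0 are drawn at 0.01). Itgb1 sits highest at 523 to 1009.5 TPM, and the diamonds of number 8 lie at the right edge of Itgb4, Itgb7 and Itga6 in both colours.

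Itgb1, the common beta chain that pairs with most alpha chains listed here, is on chromosome 8, 129412135 to 129459681, on the plus strand (mm39, as are all coordinates of genes below). It stood at 568, 1009.5, 586 and 719 TPM in control replicates 2, 5, 7 and 8 and at 981, 523, 722 and 814 TPM in RhoA het replicates 5, 6, 7 and 8. It made up 82.2% to 96.4% of the summed TPM of the 8 beta genes. The replicates numbered 5 were the highest of both groups, and the groups overlapped almost fully, with means of 721 ± 204 and 760.1 ± 191 TPM (SD, n = 4 each). The fitted log2 fold change was 0.0016 (SE 0.20, 95% interval -0.44 to 0.44), and its sign changed under other scalings.

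Among the alpha chains, Itga7 and Itga5 together took most of the transcripts. Itga7 (chromosome 10, 128769645 to 128794155, plus strand), whose product binds laminin, was at 109, 308, 163 and 176 TPM in control and 259, 149, 187 and 194 TPM in RhoA het, in the same order of replicates. Its share of all alpha chain TPM ran from 34.6% to 47.4%. Itga5, the fibronectin-binding chain, was at 119, 216, 114 and 113 TPM in control and 219, 145, 167 and 159.8 TPM in RhoA het, a share of 29.0% to 38.3%. For both genes the libraries numbered 5 were above all others. In CPM Itga5 was higher in RhoA het in 3 of 3 pairs, by 1.04-fold for number 5, 1.46-fold for number 7 and 1.30-fold for number 8, but the groups overlapped.

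Itgav encodes the chain that pairs with several beta chains to bind vitronectin and to release latent TGF-beta. It was at 55.4, 74.1, 35.3 and 44.1 TPM in control and 79.4, 42.1, 45.3 and 53.7 TPM in RhoA het. Its candidate partners beside Itgb1 were far lower. Itgb5 was at 8.26, 9.26, 10.2 and 12.3 TPM in control and 12.5, 12.3, 11.2 and 14.5 TPM in RhoA het, and its range, 1.75-fold from lowest to highest library, was the narrowest of the 30 genes with no library at 0. Itgb8, whose product presents latent TGF-beta together with that of Itgav, was at 3.44, 6.88, 5.04 and 5.94 TPM in control and 8.05, 3.29, 7.28 and 7.64 TPM in RhoA het. RhoA het replicate 6 was the lowest of all libraries for Itgb8, and the other 3 RhoA het libraries were above every control library. Itgb3, the other vitronectin receptor chain, ranged from 0.966 to 4.63 TPM and Itgb6, an epithelial chain, from 0.0206 to 0.689 TPM. Itgb2, the leukocyte chain, had 94 fragments in RhoA het replicate 6, while no other library held more than 14. That library also held the most RNA of immune markers other than Lyz2 (48.9 summed TPM over 9 genes, against 8.62 to 19.6 elsewhere), of erythroid markers (1284 against at most 623) and of endothelial markers. Their part in the Itgb2 level was not tested.

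Itga8, whose product binds nephronectin, was at 13.4, 28.5, 16.0 and 19.4 TPM in control and 25.1, 19.0, 16.0 and 25.8 TPM in RhoA het, with the groups mixed. The remaining alpha genes were low. The collagen-binding chains Itga1, Itga2, Itga10 and Itga11 averaged 7.48, 1.95, 0.905 and 2.10 TPM, with lowest libraries at 3.92, 0.758, 0.316 and 0.560 TPM and highest at 13.3, 2.99, 2.21 and 4.82 TPM. The laminin-binding Itga3 ranged from 0.956 to 4.61 TPM and Itga4, the VCAM-1 receptor chain, from 0.0854 to 0.953 TPM. Itga9, a receptor chain for tenascin, was at 0.852, 0.194, 0.325 and 1.16 TPM in control and 0.510, 0.779, 0.815 and 1.84 TPM in RhoA het, from 9 to 83 fragments per library. Reads from overlapping genes cannot be told apart where counting ignores strand, or where both genes lie on 1 strand: 11 of the 32 genes share exonic bases with another gene, 9 of them on opposite strands and 2 on the same strand. Itga10 shares 33.5% of its exonic length with a gene on its own strand, the most of any, and Nid2 shares 8.45% with an opposite one.

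Itga6 and Itgb4 encode the laminin receptor of hemidesmosomes, known from epithelia and Schwann cells. Itga6 was at 6.93, 7.02, 10.2 and 17.8 TPM in control and 7.68, 12.5, 9.25 and 28.9 TPM in RhoA het. Itgb4 (chromosome 11, 115865535 to 115899238, plus strand) was at 28.1, 15.9, 31.6 and 88.2 TPM in control and 17.9, 35.1, 23.0 and 128 TPM in RhoA het. Both genes were higher in the 2 libraries numbered 8 than in any other library, whatever the group. For Itgb4 the highest other library was at 35.1 TPM, while for Itga6 it was at 12.5 TPM, closer to control replicate 8, and Itgb4 was lowest in the 2 numbered 5. In bulk RNA such as this, fewer cells of a type and less RNA per cell cannot be told apart.

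The laminin alpha chains were led by Lama2 (chromosome 10, 26856032 to 27495754, minus strand). It was at 31.5, 65.7, 48.3 and 40.8 TPM in control and 82.3, 42.8, 53.8 and 58.8 TPM in RhoA het, between 57.4% and 79.9% of all laminin alpha TPM. Its next partners in the class were Lama4, a chain of vessel and nerve basement membranes, and Lama3, an epithelial chain. Lama4 was at 9.02, 6.54, 8.86 and 17.4 TPM in control and 11.8, 9.51, 7.58 and 21.8 TPM in RhoA het, again highest in the libraries numbered 8. Lama3 was at 10.2, 6.53, 9.29 and 7.61 TPM in control and 4.24, 13.4, 6.87 and 6.64 TPM in RhoA het, so the highest library of each group was the one with Y-linked transcripts. Lama5, a chain of many adult epithelia and vessels, ranged from 3.13 to 9.46 TPM, and Lama1, an embryonic chain, had 17 fragments in RhoA het replicate 5, while no other library held more than 3.

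Lamc1, the gamma chain of nearly all laminins, was at 28.9, 98.0, 29.2 and 38.5 TPM in control and 93.5, 43.8, 48.7 and 40.3 TPM in RhoA het. The library numbered 5 was the highest of each group, and both lay above all 6 other libraries. Lamc3 took 12.0% and 16.8% of the gamma chain TPM in control replicate 2 and RhoA het replicate 6, at 3.94 and 8.83 TPM, and at most 3.32% in the other libraries. Those 2 are the libraries with Y-linked transcripts, and RhoA het replicate 6 also held the endothelial RNA; whether either bears on Lamc3 was not tested. Its log2 fold change of RhoA het against control, 0.67 in all 8 libraries, was -1.36 without RhoA het replicate 6.

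The nidogen genes were present at similar levels. Nid1 was at 41.1, 52.8, 21.0 and 36.2 TPM in control and 45.6, 70.3, 28.8 and 59.2 TPM in RhoA het. Nid2 was at 32.4, 60.8, 26.8 and 40.3 TPM in control and 51.9, 37.3, 27.1 and 47.3 TPM in RhoA het. Nid1 took 44.0% to 65.3% of their sum, and this share was highest in RhoA het replicate 6, the library with the most endothelial RNA; the part of that RNA in the Nid1 level was not tested.

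**Figure D2:**
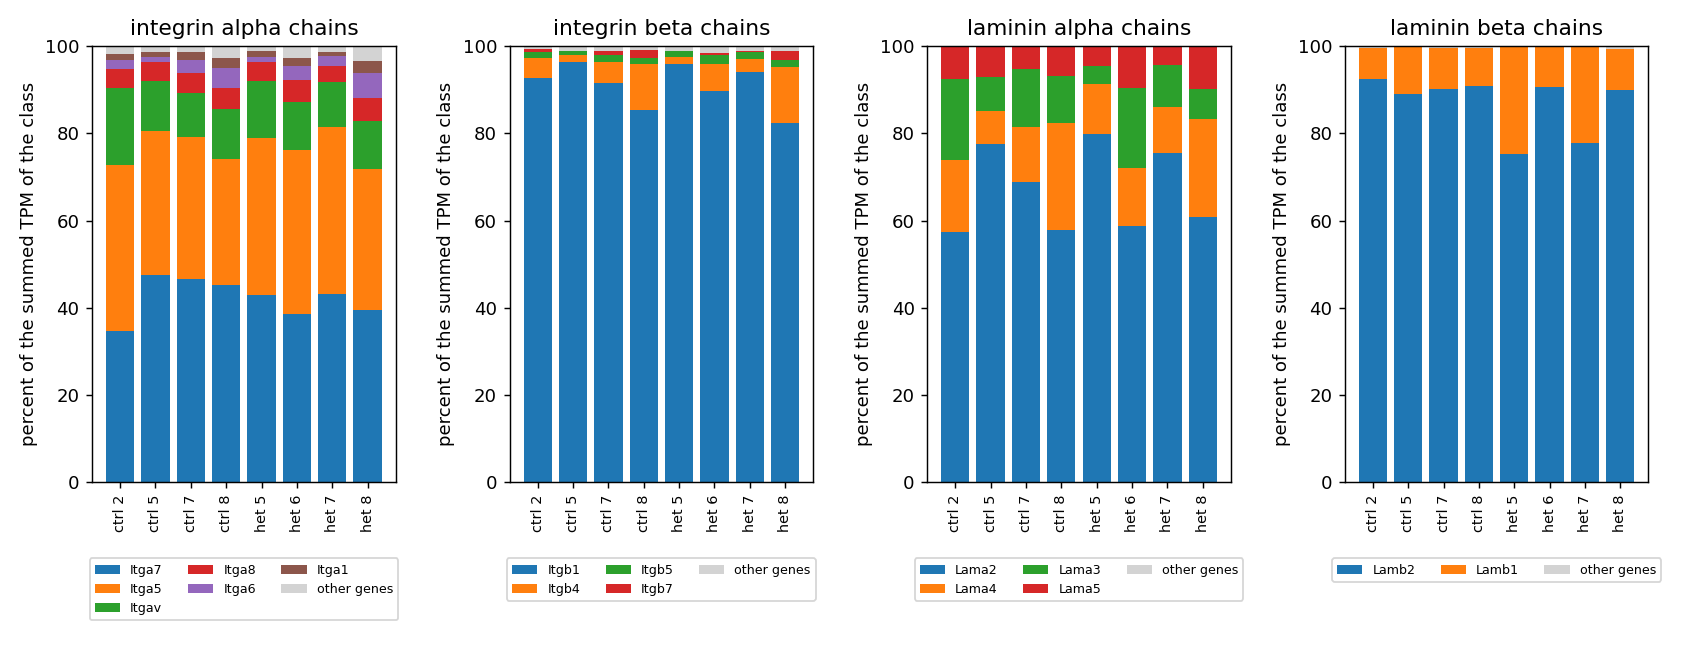
Percent of the summed TPM of the integrin alpha, integrin beta, laminin alpha and laminin beta genes taken by the leading genes of each class, for the 8 libraries (ctrl, control; het, RhoA het; the number is the replicate). Itgb1 and Lamb2 fill most of their classes in every bar, and the Lamb1 part is widest in RhoA het replicates 5 and 7, at 24.7% and 22.05%.

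The groups were then compared. The test was edgeR's quasi-likelihood F test on the counts of all 15660 genes that passed the filter on low counts, with p adjusted over all of them by Benjamini-Hochberg. Itgb2, Itgb6 and Lama1 did not pass that filter, and 29 of the 32 listed genes were tested. None of the 29 passed an adjusted p of 0.05, nor did any of all genes (0%), and DESeq2 and limma called 0 genes as well. At an unadjusted p under 0.05 there was 1 listed gene, Lamb1, against 372 of all genes tested (2.38%). It was higher in RhoA het, as were 1.68% of all genes at that p, while 0 listed genes were lower, against 0.696%. For 0 of the 29 were the 2 groups free of overlap, where 1.81% of all genes were (1.02% higher and 0.792% lower in RhoA het).

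Lamb1 (ENSMUSG00000002900.18; chromosome 12, 31315233 to 31379643, plus strand) encodes a laminin beta chain of developing and many adult basement membranes. None of its exons overlaps another annotated gene. The table gave it 668, 1222, 968 and 1250 fragments in control replicates 2, 5, 7 and 8, which is 9.19, 20.5, 12.2 and 18.1 TPM. RhoA het replicates 5, 6, 7 and 8 held 3074, 1114, 2390 and 1725 fragments, which is 50.6, 16.4, 36.0 and 29.7 TPM. All RhoA het libraries but replicate 6 lay above the highest control library. RhoA het replicate 6 lay inside the control range, below control replicates 5 and 8, so the groups overlapped.

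The group means of Lamb1 were 14.99 ± 5.20 and 33.2 ± 14.2 TPM (SD, n = 4 each), and its fitted log2 fold change was 1.07 (SE 0.30, 95% interval 0.40 to 1.74). In edgeR its unadjusted p was 0.00529, rank 18 among all genes tested, and its adjusted p was 1.00. The two-sided exact permutation p over the 70 assignments of 4 against 4 libraries was 0.0857, where the smallest possible is 0.0286. Within pairs of the same number, TMM-scaled CPM were higher in RhoA het by 2.54-fold for number 5, 2.95-fold for number 7 and 1.51-fold for number 8. When the number entered the fit as a block, Lamb1 had a log2 fold change of 1.15 (SE 0.17, 95% interval 0.77 to 1.52) and rank 5 among all genes, with an adjusted p of 0.0834 in edgeR. With no block and without RhoA het replicate 6, the RhoA het library inside the control range, the log2 fold change was 1.28 (SE 0.24, unadjusted p 0.000565 in edgeR). Leaving out any single library kept it between 0.82 and 1.28. The largest unadjusted p among these fits was 0.0184 in edgeR, without control replicate 7.

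Lamb2 encodes the beta chain that is enriched at neuromuscular junctions. It lies at chromosome 9, 108356935 to 108367729, on the plus strand, and starts 142 kb beyond the end of Rhoa, so the floxed allele and Lamb2 are close neighbours on 1 chromosome. It was at 121, 169.8, 115 and 191 TPM in control and 154, 161, 127 and 283 TPM in RhoA het. The groups overlapped, with means of 149 ± 37.2 and 181 ± 69.2 TPM (SD, n = 4 each) and a log2 fold change for Lamb2 of 0.20 (SE 0.27, 95% interval -0.39 to 0.80). Without RhoA het replicate 8 it was -0.091.

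The make-up of the laminin beta chains stood apart in RhoA het replicates 5 and 7. Lamb1 took 7.05%, 10.7%, 9.56% and 8.61% of the beta chain TPM in control replicates 2, 5, 7 and 8. It took 24.7% and 22.05% in RhoA het replicates 5 and 7, but 9.23% and 9.45% in RhoA het replicates 6 and 8, which is inside the control range. In RhoA het replicate 8 Lamb1 and Lamb2 were both high. The ratio of Lamb1 to Lamc1, its gamma partner, was 0.209 to 0.470 in control and 0.375 to 0.739 in RhoA het, with RhoA het replicate 6 inside the control range. The summed TPM of the 10 fibro-adipogenic markers was 4068 to 9272 in control and 6694 to 8799 in RhoA het. Their part in the Lamb1 level was not tested.

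**Figure D3:**
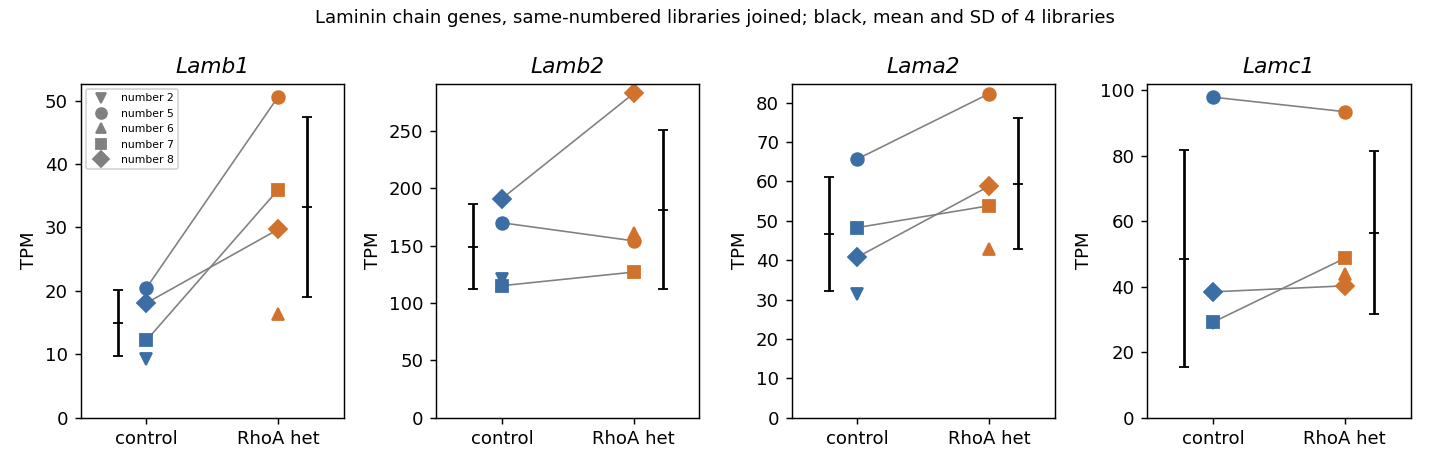
TPM of the genes Lamb1, Lamb2, Lama2 and Lamc1 in control (left, blue) and RhoA het (right, orange) libraries, with lines joining libraries of the same number and black marks for the mean and SD of 4 libraries. The lines of Lamb1 all rise, while those of Lamc1 stay nearly level except for number 7.

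As a set, 24 of the 29 listed genes tested had a log2 fold change above 0, against 49.9% of all genes, and their median was 0.23, against -0.00071 over all genes tested. Single libraries moved this count and median. Without RhoA het replicate 8 the median was -0.00072 over 31 listed genes tested, 15 of which were above 0, against 47.2% of all genes, and 2 reached an unadjusted p under 0.05 in edgeR, Lamb1 and Lamb3 (2.14% of all genes did). Without control replicate 7 the median was 0.11, and 19 of 29 were above 0. Without RhoA het replicate 6, the library with endothelial RNA, the median was 0.25 and 26 of 30 were above 0, against 50.3% of all genes. RhoA het replicate 8 was the highest of all 8 libraries for 15 of the 29 genes tested, against 16.6% of all genes. The medians by class in all 8 libraries were 0.35 over 12 integrin alpha, 0.15 over 6 integrin beta and 0.23 over 4 laminin alpha genes. They were 0.20 over 3 laminin beta, 0.42 over 2 laminin gamma and 0.16 over 2 nidogen genes.

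In the block fit, 0 of 30 listed genes passed an adjusted p of 0.05 in edgeR, while 2 of all 15714 genes did (0.0127%). A log2 fold change above 0 was found for 22 of the 30, against 46.2% of all genes. At an unadjusted p under 0.05 that fit had 6 listed genes, or 20% of those tested, against 5.26% of all genes. Higher in RhoA het were 5 of these (2.98% of all genes were higher) and lower was 1 (2.28%). Beside Lamb1 the higher ones were Itga9 (log2 fold change 1.00, SE 0.36), Itgb8 (0.32, SE 0.14), Itga5 (0.31, SE 0.12) and Lama2 (0.29, SE 0.12), and the lower one was Lama3 (-0.47, SE 0.14). Their adjusted p lay between 0.673 and 0.931 in edgeR. Each of the 6 lay on the same side in 3 of 3 pairs. They were picked by a fit of these same pairs, so this adds no support. In the fit over all 8 libraries none of these 5 reached an unadjusted p of 0.05, and in the same 6 libraries without the block none did either.

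Itgb8 and Lama3 crossed the unadjusted threshold with RhoA het replicate 6 left out. Without that library Itgb8 had a log2 fold change of 0.43 (SE 0.17, unadjusted p 0.0330 in edgeR) in place of 0.23, and Lama3 one of -0.65 (SE 0.29, unadjusted p 0.0499 in edgeR) in place of -0.20. Both adjusted p values were 1.00. With Lamb1 these were the 3 listed genes under 0.05 in that setting, against 1.96% of all genes. Higher in RhoA het in 3 of 3 pairs were 7 of the 29 genes, namely Itgav, Itga9, Lama2, Lamb1, Itgb8, Itga5 and Itgb5, where 13.6% of all genes were. Lama3 was the only one of the 29 lower in 3 of 3 pairs, where 12.5% of all genes were.

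**Figure D4:**
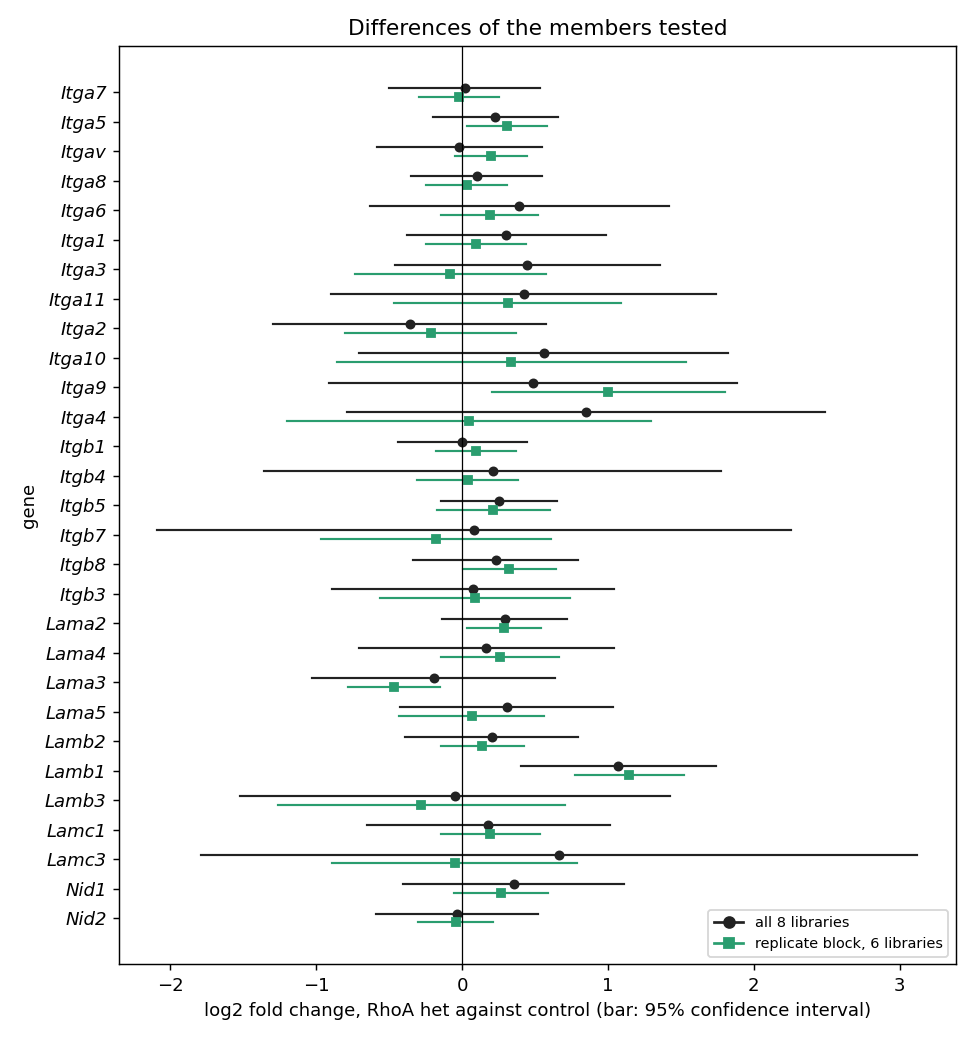
Log2 fold change of RhoA het against control for the 29 listed genes tested, with 95% confidence intervals, from all 8 libraries (black circles) and from the 6 libraries of the shared numbers with the number as a block (green squares). The interval of Lamb1 lies above 0 in both fits, 0.40 to 1.74 and 0.77 to 1.52, and those of Lamc3 and Itgb7 are the widest of the black bars.

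In most of these genes libraries differed less within a replicate number than between numbers. For 27 of the 29 genes the mean absolute log2 CPM difference within a number, across the groups, was smaller than that within a group, across the numbers, against 65% of all genes tested. The median same-number difference over the listed genes was 0.35 on the log2 scale and the median other-number difference 0.72. Over all genes tested these medians were 0.28 and 0.37. The 2 exceptions were Lamb1, with 1.17 against 0.47, and Itgb8, with 0.35 against 0.15. Itgb7 (0.73 against 2.72), Itgb4 (0.36 against 1.87) and Itga11 (0.74 against 1.51) had the widest differences between numbers.

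By TMM-scaled CPM the libraries numbered 8 were the highest of both groups for 12 of the 29 genes, against 10.5% of all genes tested. These were the hemidesmosome pair Itga6 and Itgb4, the leukocyte chain pair Itga4 and Itgb7, the collagen receptor chains Itga1, Itga2 and Itga11, then Itga9, Itgb5, Lama4, Lamb2 and Lamb3. Itgb7, a chain known from lymphocytes, was at 13.9 and 20.5 TPM in the libraries numbered 8 and at 0.840 to 4.92 TPM in the others. Its usual partner Itga4 was at 0.328 and 0.953 TPM there and at most 0.418 TPM elsewhere. Lyz2, a lysozyme gene of myeloid cells, was at 790.0 to 817 TPM in the same 2 libraries and at 209 to 438 TPM in the others. The other 9 immune markers summed to 13.8 and 17.8 TPM there, inside the 8.62 to 48.9 TPM of the other libraries, so Lyz2 alone of this list was high. Ptprc, the defining gene of leukocytes, reached at most 0.742 TPM in any library, and 5 of the 10 immune markers were at 0 in some library. The summed TPM of the 8 Schwann markers was 853 and 1014 in the libraries numbered 8 and 660.5 to 906 in the others. The 7 mural markers, of which Rgs5 was the largest part, summed to 429 and 1019 TPM in the libraries numbered 8 and to 296 to 820.2 TPM elsewhere. Cspg4 was above all other libraries in both, at 11.4 and 15.9 TPM against at most 7.19 TPM. Rgs5, Pdgfrb, Myh11, Kcnj8, Abcc9 and Notch3 were not. Whether these cell types bear on the level of Itgb4 or Itgb7 was not tested.

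By TMM-scaled CPM the libraries numbered 5 were the highest of both groups for 6 genes, against 14.5% of all genes tested. These were Itgb1, Itga7, Itga5, Lama2, Lamc1 and Nid2. Each of these 6 was higher in both libraries numbered 5 than in any other library by TPM, as was Itgav. By TMM-scaled CPM the libraries numbered 5 were the lowest of both groups for Itga6, Itga9, Itgb4, Itgb7 and Lama3, against 14.1% of all genes. By TPM the lowest control library for Itga6 was replicate 2, at 6.93 TPM against 7.02 TPM in replicate 5. Of the 10 fibro-adipogenic markers, 4 were above all other libraries in both libraries numbered 5 (Col1a1, Col1a2, Col3a1 and Dpt), with Col3a1 at 2485 and 1828 TPM against at most 876 TPM elsewhere. The other 6 were not: Dcn was at 176 and 321 TPM there, against 271 to 1141 TPM elsewhere, and Pdgfra, the defining surface marker, was at most 4.17 TPM in any library. The part of such cells in the levels of these genes was not tested. By TMM-scaled CPM the libraries numbered 7 were the lowest of both groups for 9 genes, among them Nid1, Nid2, Lamb2 and Itgav, against 6.92% of all genes tested. They were the highest of both groups for 0 genes (7.55% of all genes), and the libraries numbered 8 the lowest of both groups for 0 (6.97%). By TPM, Itgav was lower in RhoA het replicate 6 (42.1) than in RhoA het replicate 7 (45.3). Itga8 and Itga4, also among the 9, were lower by TPM in control replicate 2 than in control replicate 7.

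**Figure D5:**
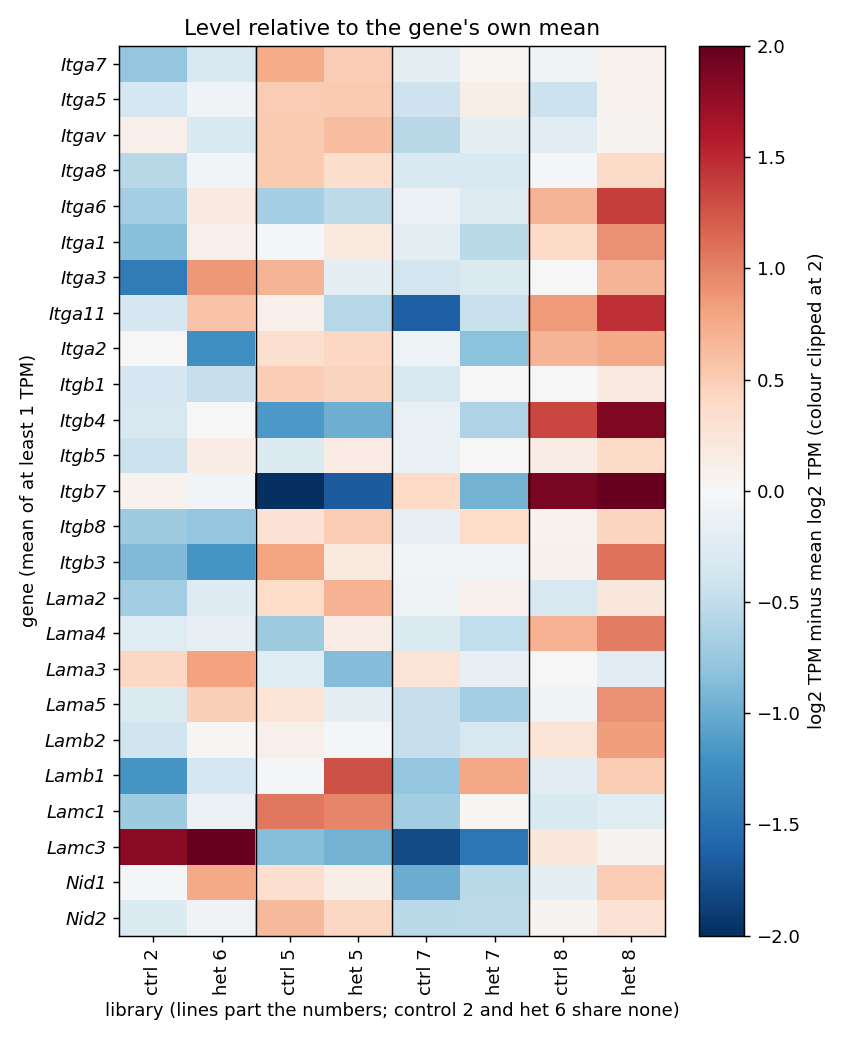
Log2 TPM of the genes averaging at least 1 TPM, relative to each gene's mean over the 8 libraries (red above, blue below, colour clipped at 2), with same-numbered libraries in neighbouring columns and the unpaired control 2 and het 6 first. Itgb4, Itgb7, Itga6 and Lama4 are red in both columns of number 8 and Lamc1 in both columns of number 5, while Lamb1 is redder in the het column of each pair.

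Other genes of the same adhesion system were read from lists of named genes. None of their members passed an adjusted p of 0.05 in edgeR, with or without the block. Of the integrin adaptors and activators, 25 of 27 were tested, 12 had a log2 fold change above 0 and the median was -0.015. The 9 lateral partners (tetraspanins and others) had a median of -0.045, and the 12 other laminin receptors one of 0.038. Over 21 tested genes of other basement membrane proteins the median was 0.20, with 16 above 0, and with the block it was 0.026, with 12 above 0. The 17 integrin ligands tested had a median of 0.061 with 9 above 0.

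Over these lists, and the list of blood cell integrins, 3 of 86 genes tested reached an unadjusted p under 0.05 in the fit over all 8 libraries, against 2.38% of all genes: Icam1, Icam2 and Itgal, each higher in RhoA het. In the block fit 6 of 85 did, against 5.26% of all genes. Higher were Ccn2 (log2 fold change 0.47), Icam1 (0.39) and Fbln1 (0.38), and lower were Ccn1 (-0.38), Sgca (-0.37) and Bcar1 (-0.31). Icam1, a ligand of leukocyte integrins, was at 56.7, 56.9, 57.5 and 55.5 TPM in control and 71.4, 126, 59.5 and 106 TPM in RhoA het. By TPM every RhoA het library was above every control library. In TMM-scaled CPM, the scale of the overlap counts above, the groups of Icam1 overlapped. The log2 fold change of Icam1 over all 8 libraries was 0.60 (SE 0.25), and without RhoA het replicate 6 it was 0.35 (SE 0.21). Icam2, an endothelial and leukocyte ligand, reached 25.1 TPM in RhoA het replicate 6, against 3.87 TPM in the next library, and its log2 fold change was 2.30 with that library and 0.51 without it. Itgal, a leukocyte integrin chain, stayed under 1 TPM in every library, with a log2 fold change of 1.80 (SE 0.51), and 1.48 without RhoA het replicate 6. Bcam, the receptor of the Lama5 chain, was at 68.2 and 129.8 TPM in the libraries numbered 8 and at 19.1 to 61.4 TPM in the others.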

How the data were processed

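The authors deposited raw counts per gene and TPM per gene for 8 libraries. Per the file headers, featureCounts 1.6.4 counted fragments in paired-end mode over exons of GENCODE mouse release 34 on mm39 with no strand option, from STAR alignments. The command named 10 alignment files; the libraries not in the table were not analysed here. Per the labels' protocols, RNA was extracted with Trizol and libraries were made by template switching. The deposited TPM equalled counts per length scaled per library, to within a relative difference of 1.5e-14. Symbols came from GENCODE release 21 by identifier without version (51884 of 57180 matched). Promoter windows are RefSeq's (GRCm38.p6); 21 of 32 genes matched.

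Counts were filtered with filterByExpr (15660 genes kept), scaled by TMM and tested in R 4.3.3 with edgeR 4.0.16, with the 2 groups as the only term. Log2 CPM used a prior count of 2. The code was tested on simulated data. Replicate numbers 5, 7 and 8 were taken to pair the libraries because each pair's deviations correlated above 0.1. That choice rests on the same data as the block fit, and libraries of different numbers were not correlated for comparison. The meaning of these numbers is not given in the labels. Alternatives were other scalings and filters, DESeq2 1.42.0, limma 3.58.1 on log2 TPM, a block for the replicate number and 1 library left out at a time. Values in every library are given for genes of at least 10 TPM on average, genes with an unadjusted p under 0.05 in either edgeR fit, and genes with a library standing apart; of the other lists, at most 3 genes each. Bcam, Itga4, Itgb7, Lamc3 and the cell type markers were named after their values were seen. The genes and lists were chosen with earlier results of these data known. Every 2 libraries of 1 group differed by more than counting noise (lowest chi-square over its degrees of freedom 43.0).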

Additional observations from a re-analysis of the deposited data

Results flagged for a closer look

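Each of the 29 genes tested was checked in both groups for a library standing apart from the other 3, by the gap to its nearest neighbour over the range of the group (Dixon's ratio at its 95% critical value, on log2 CPM). Of 58 such checks 1 passed, where chance gives about 2.9. It was Itgb8 in RhoA het replicate 6, with a ratio of 0.928: this library was at 11.8 CPM, and the other RhoA het libraries were at 24.2 to 25.6 CPM.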

How the results depend on the processing

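No gene passed an adjusted p of 0.05 under any alternative but the replicate block, which called 2 of all genes and 0 of the listed ones. Lamb1 kept its direction and an unadjusted p under 0.05 under every alternative run, with log2 fold changes from 0.82 to 1.28. The number of listed genes with an unadjusted p under 0.05 was 6 with the replicate block and ran from 1 to 3 when single libraries were left out. The number of all genes called was 0 whichever library was left out. The median log2 fold change of the listed genes ran from -0.00072 (without RhoA het replicate 8) to 0.34 when single libraries were left out. It was 0.12 with the replicate block, 0.19 in the same 6 libraries without it and 0.20 over the 15 genes of at least 10 TPM, a restriction chosen after seeing the data. Some differences, none past the unadjusted threshold in all 8 libraries, changed sign. With the block the log2 fold change was -0.082 for Itga3, -0.019 for Itga7, 0.20 for Itgav, -0.18 for Itgb7 and -0.051 for Lamc3. In the same 6 libraries without it, it was -0.063 for Itga3, -0.048 for Itga7, 0.18 for Itgav, 0.14 for Lamb3 and -0.14 for Lamc3. On total counts without TMM it was 0.051 for Itgav, 0.010 for Lamb3 and 0.0096 for Nid2. In limma on log2(TPM + 1) it was 0.085 for Itgav, -0.086 for Itgb7 and 0.055 for Nid2, and with a pseudocount of 0.1 it was 0.087, -0.11 and 0.057. For Itgb1 it was -0.00054 with DESeq2 size factors in edgeR and in the DESeq2 Wald test, and -0.0075 without the filter. The cause of these changes was not tested. Leaving out single libraries, the log2 fold change ran from -0.065 to 1.19 for Itga4, -0.17 to 0.79 for Itga6, -0.11 to 0.25 for Itga7, -0.00095 to 0.24 for Itga8, -0.0078 to 0.85 for Itga10, -0.11 to 0.88 for Itga11, -0.21 to 0.12 for Itgav and -0.12 to 0.12 for Itgb1. It ran from -0.39 to 0.33 for Itgb3, -0.78 to 0.91 for Itgb4, -1.48 to 0.93 for Itgb7, -0.65 to 0.025 for Lama3, -0.23 to 0.52 for Lama4, -0.091 to 0.36 for Lamb2, -1.14 to 0.24 for Lamb3, -0.13 to 0.64 for Lamc1, -1.36 to 1.91 for Lamc3 and -0.20 to 0.12 for Nid2. Lamb3 had an unadjusted p of 0.0407 without RhoA het replicate 8, and Itga5 one of 0.0385 without control replicate 5 (edgeR). Genes under 1 TPM, down to 8 fragments in a library for Itga4, are limited by counting error.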
